A study of Mus musculus with 15 samples.

Results

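Natural killer cells are innate lymphocytes that kill tumour and virus-infected cells by releasing granules that hold perforin and granzymes. Activating receptors such as NKp46 (Ncr1) and NKG2D (Klrk1) and the inhibitory CD94 receptor complexes (Klrd1) set when they fire, the T-box factors T-bet (Tbx21) and Eomes direct their maturation, and interleukin 15, read through the receptor chain encoded by Il2rb, keeps them alive. The spleen is one of the organs in which they reside. The set described here is made of 10 genes of these cells: the granule genes Gzma, Gzmb and Prf1, the receptor genes Ncr1, Klrb1c, Klrd1 and Klrk1, the transcription factor genes Tbx21 and Eomes, and Il2rb. Members were the probe sets (groups of array probes read as 1 value) whose annotation names exactly 1 of these genes. Of 10 genes, 9 had such a probe set, and 12 probe sets of 45101 on the array were members. Klrb1c, the gene of the NK1.1 antigen, had only a probe set that names a second gene as well, and is not reported.

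The samples were 15 Affymetrix arrays of primary acute myeloid leukemia cells from the spleens of leukemic mice. The leukemia of every group carried the Mll-AF9 fusion and an NRASG12V transgene that doxycycline switches off, and had been passed by tail vein into SCID/Beige mice, which were ill with more than 100000 white blood cells per microlitre at 20 days. RAS-ON_0_hr held 5 arrays of vehicle-treated mice, with NRASG12V on. RAS-OFF held 2 arrays each at 48, 60, 72, 84 and 96 h of doxycycline, given by injection at 0 h and then in drinking water. The labels do not name the promoter that drives NRASG12V, the mice's age or whether each array was 1 mouse. SCID mice lack mature T and B cells but keep natural killer cells, and the beige mutation, in Lyst, impairs granule release, which limits these hosts as a model of natural killer function. Time since the start of treatment, doxycycline itself and the loss of NRASG12V cannot be told apart in this design. In these samples from leukemic spleens fewer cells of a type and less RNA per cell cannot be told apart either.

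The median intensity was 149.99 to 156.53 on every array, and precision is limited by how many arrays there are. The RAS-ON arrays formed a set of 1 to 3 and a set of 4 and 5, with an SD of the log2 difference of 0.178 to 0.286 within and 0.247 to 0.343 between the sets, so results are also given against each set. The first arrays of 48, 84 and 96 h were known from earlier results of these data to stand apart, and without them 4 of the 9 genes in place of 5 were called for RAS-OFF against RAS-ON. RAS-OFF 96 h replicate 1 had a 3-prime minus 5-prime Gapdh difference, a sign of RNA integrity, of 1.22 on the log2 scale, against 0.10 to 0.35 on the other arrays. The 18 measured genes of tissues outside blood, such as Alb and Ins2, had mean log2 intensities of 3.86 to 8.73 and changes of -0.22 to 0.18. Several natural killer genes read within that range of intensity, and a level there does not by itself show a transcript. Among 12 leukemia markers the mean log2 intensity was highest for Ptprc (13.19) and Mpo (13.03). The erythroid gene Slc4a1 was brighter, at 13.67, so brightness alone does not give the cell make-up of the samples.

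The promoters of the granzyme genes and Ncr1 are shown because Gzma and Ncr1 had the largest rises of the set and Gzmb, a granzyme gene like Gzma, did not pass the test. Each is the 250 bases before the RefSeq start site (build GRCm38.p6), at chr13:113100982-113101231 on the minus strand for Gzma, chr14:56262335-56262584 on the minus strand for Gzmb and chr7:4337465-4337714 on the plus strand for Ncr1. Capitals mark AGGTGT, a T-box core, and TGTGGT, a RUNX core, on either strand, so that ACACCT and ACCACA are the same motifs read on the other strand.
Gzma: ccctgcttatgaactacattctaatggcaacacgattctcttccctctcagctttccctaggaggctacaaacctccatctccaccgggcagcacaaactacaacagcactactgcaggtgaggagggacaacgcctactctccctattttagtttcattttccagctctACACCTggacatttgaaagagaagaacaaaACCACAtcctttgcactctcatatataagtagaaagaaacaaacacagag
Gzmb: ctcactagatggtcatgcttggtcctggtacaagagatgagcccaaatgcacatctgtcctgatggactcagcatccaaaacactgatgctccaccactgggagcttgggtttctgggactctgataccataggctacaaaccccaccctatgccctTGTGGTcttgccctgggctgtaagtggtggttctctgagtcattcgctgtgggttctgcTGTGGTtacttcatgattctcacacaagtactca
Ncr1: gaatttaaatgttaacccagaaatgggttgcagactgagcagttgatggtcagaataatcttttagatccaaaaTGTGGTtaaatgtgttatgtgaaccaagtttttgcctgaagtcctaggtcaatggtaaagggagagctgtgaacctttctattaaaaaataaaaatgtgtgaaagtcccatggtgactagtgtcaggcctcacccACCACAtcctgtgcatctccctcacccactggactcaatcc

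A promoter was given for 8 of the 10 genes, Klrb1c among them. TGTGGT was in 6 of these 8 windows, in Gzma, Gzmb, Prf1, Ncr1, Klrb1c and Klrk1, and in 14.0% of 32851 RefSeq windows of the same length. AGGTGT was in 2 of 8, Gzma and Prf1, and in 11.8% of all windows. GGAAGT, an ETS core that overlaps neither in these windows, was in 3 of 8, Prf1, Tbx21 and Klrb1c, and in 19.7% of all windows. Both granzyme promoters hold the RUNX core, Gzma once and Gzmb at 2 positions, and only Gzma of the pair holds the T-box core. These are matches of letters and no binding was measured.

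Setting RAS-OFF against RAS-ON asks what changes in the leukemic spleen once NRASG12V is turned off. Of the 9 measured genes 5 rose, Gzma, Ncr1, Tbx21, Klrd1 and Eomes, and none fell, at an adjusted p below 0.05 in limma over 18193 genes. In all genes 20.1% were called higher and 28.7% lower. The median log2 difference was 0.18 over the 9 genes and -0.04 over all genes tested. Gzmb, Prf1, Klrk1 and Il2rb did not pass. The summed intensity of the 9 genes was 3083 to 3668 in RAS-ON arrays and 3649 to 5776 in RAS-OFF arrays. This sum weighs bright genes most, and Klrd1 (mean log2 intensity 10.42) and Gzma (9.72) were the brightest, so it does not show a rise of every gene.

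Gzma encodes granzyme A, a serine protease of cytotoxic granules. Its log2 intensity was 9.05, 9.37, 8.98, 9.19 and 8.87 on RAS-ON arrays 1 to 5. With RAS off it was 10.23 and 10.69 on the 48 h pair, 10.51 and 10.03 on the 60 h pair, 9.78 and 9.94 on the 72 h pair, 9.70 and 9.85 on the 84 h pair and 9.51 and 10.09 on the 96 h pair. All 10 RAS-OFF arrays lay above all 5 RAS-ON arrays, which 9.36% of all genes also did. The rise was 0.94 ± 0.12 (SE) on the log2 scale, a 1.92-fold difference, with an adjusted p of 8.26e-06 in limma. It was 0.90 against RAS-ON arrays 1 to 3 and 1.01 against arrays 4 and 5, and passed against each.

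Granzyme B and perforin did not pass the test. Gzmb, whose product cleaves caspases in the target cell, ran from 7.43 to 7.79 (median 7.65) on RAS-ON arrays and from 7.41 to 7.91 (median 7.61) on RAS-OFF arrays. The groups overlapped, and the difference was -0.05 ± 0.06 (SE; adjusted p = 0.552 in limma), with a 95% interval of -0.17 to 0.08. Prf1, which encodes the pore-forming protein that lets granzymes in, ran from 7.27 to 7.66 on RAS-ON and 7.47 to 7.87 on RAS-OFF arrays, a difference of 0.10 ± 0.07 (SE; adjusted p = 0.265 in limma; 95% interval -0.05 to 0.25). Its other probe set, with readings of 6.46 to 6.82 that lay below the median of every array, differed by 0.08 ± 0.06 (SE). The within-array difference of Gzma minus Gzmb was tested after the values were seen. It was 1.44 ± 0.20 (SD, n = 5) on vehicle and 2.42 ± 0.25 (SD, n = 10) on doxycycline, higher in 10 of 10 RAS-OFF arrays, by 0.99 (two-sided exact permutation p = 0.000666, the smallest these groups allow; 0.000999 adjusted over the 3 pairs so tested). The mean Gzmb reading, 7.63, lay within the range of the genes of tissues outside blood, so the pair does not show by how much Gzmb mRNA changed.

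**Figure D1:**
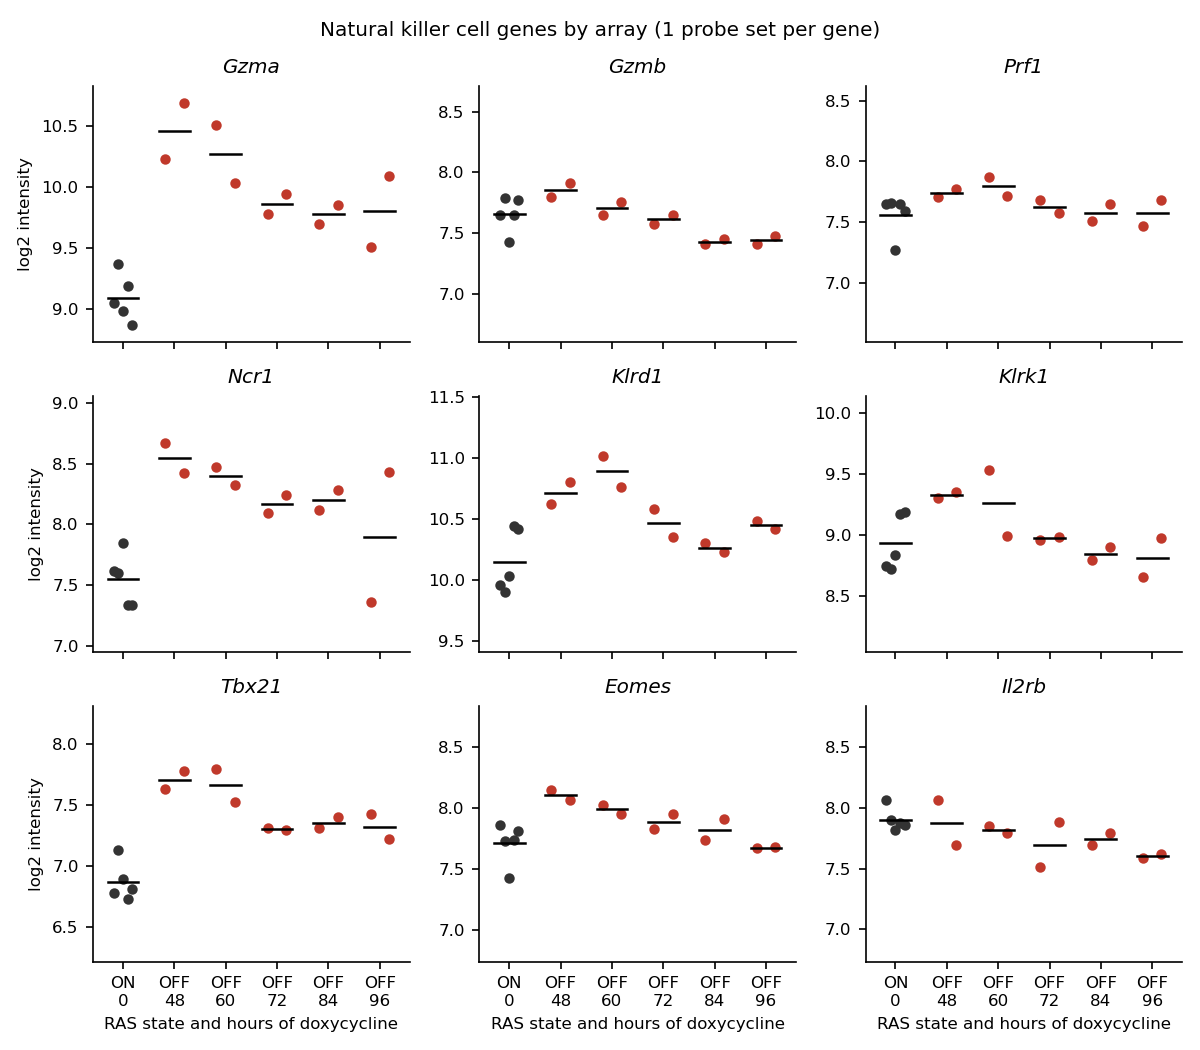
Log2 intensity of each of the 9 measured genes (vertical axis, 1 probe set per gene, every panel the same height in log2 units) on each array, by RAS state and hours of doxycycline (horizontal axis); points are arrays, black for RAS-ON and red for RAS-OFF, and bars are group means. Gzma runs from 8.87 to 9.37 in RAS-ON and from 9.51 to 10.69 in RAS-OFF arrays, while the Gzmb groups overlap between 7.41 and 7.91.

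Among the 3 measured receptor genes of the set, Ncr1, which encodes the activating receptor NKp46 and is among the most restricted markers of these cells, rose most. Its log2 intensity was 7.62, 7.60, 7.85, 7.34 and 7.34 on RAS-ON arrays 1 to 5. It was 8.67 and 8.42 on the 48 h pair, 8.47 and 8.32 on the 60 h pair, 8.09 and 8.24 on the 72 h pair, 8.12 and 8.28 on the 84 h pair and 7.36 and 8.43 on the 96 h pair. Of the RAS-OFF arrays 9 of 10 lay above all RAS-ON arrays. The exception, at 7.36, was 96 h replicate 1, which also had the raised Gapdh value, whose part in this reading was not tested. The rise was 0.69 ± 0.14 (SE), with an adjusted p of 0.000712 in limma, and it was 0.55 and 0.90 against the first and second sets of RAS-ON arrays, both called. All readings lay within the mean intensities of the genes of tissues outside blood (3.86 to 8.73), so no fold of the mRNA is given.

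Klrd1 encodes CD94, which pairs with NKG2 proteins to read the nonclassical class I molecule Qa-1. Its log2 intensity was 9.96, 9.90, 10.03, 10.44 and 10.42 on RAS-ON arrays 1 to 5, so that arrays 4 and 5 stood above 1 to 3. With RAS off it was 10.62 and 10.80 on the 48 h pair, 11.02 and 10.76 on the 60 h pair, 10.58 and 10.35 on the 72 h pair, 10.30 and 10.23 on the 84 h pair and 10.48 and 10.42 on the 96 h pair. Every RAS-OFF array was above RAS-ON arrays 1 to 3, and 6 of 10 were above all 5. The gene rose by 0.41 ± 0.09 (SE; adjusted p = 0.00241 in limma), but against arrays 4 and 5 alone it was 0.13 with an adjusted p of 0.27, the highest over 26 alternative settings (1.36e-05 the lowest).

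Klrk1 encodes NKG2D, the activating receptor for stress-induced ligands. It showed the same split of RAS-ON arrays, at 8.74, 8.72, 8.83, 9.17 and 9.19 on arrays 1 to 5. The RAS-OFF arrays ran from 8.65 to 9.53 (median 8.98), with 3 of 10 above all RAS-ON arrays and 1 below. The difference was 0.11 ± 0.10 (SE; adjusted p = 0.377 in limma; 95% interval -0.10 to 0.33). Against RAS-ON arrays 1 to 3 it was 0.28 with an adjusted p of 0.0267, and against arrays 4 and 5 it turned to -0.14 (adjusted p = 0.375). Its adjusted p ran from 0.0267 to 0.673 over 26 alternatives.

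On the same array Klrd1 and Klrk1, both on chromosome 6, differed by nearly the same amount throughout RAS-ON, with a log2 difference between 1.18 and 1.27 on all 5 arrays. It was 1.32 to 1.83 on RAS-OFF arrays, above RAS-ON in 10 of 10, and the mean went up by 0.29 (two-sided exact permutation p = 0.000666, adjusted p = 0.000999, the same family of 3 pairs). This difference kept its size against either set of RAS-ON arrays and with each array left out, at 0.26 to 0.31. The pair was picked after the values were seen, and the adjusted p does not allow for that choice.

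**Figure D2:**
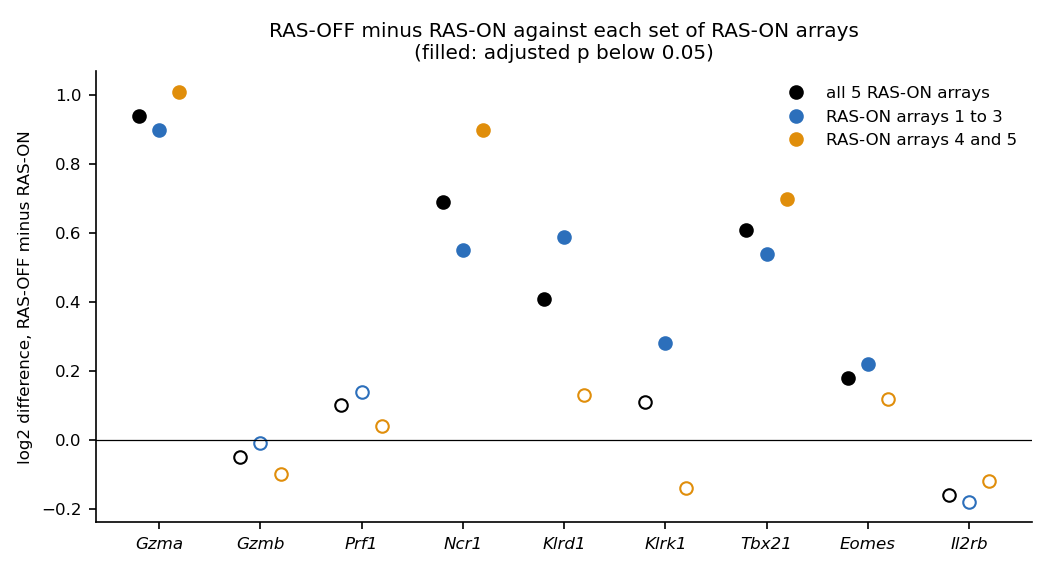
Log2 difference of RAS-OFF minus RAS-ON (vertical axis) for the 9 genes, computed with all 5 RAS-ON arrays (black), with arrays 1 to 3 (blue) and with arrays 4 and 5 (orange); filled points passed an adjusted p of 0.05 in limma. Gzma, Ncr1 and Tbx21 were called against every set, and Klrd1 dropped from 0.59 to 0.13 and Klrk1 from 0.28 to -0.14 between the sets.

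The transcription factor genes both passed. Tbx21, which encodes T-bet, a driver of natural killer maturation and of interferon gamma, was at 6.78, 7.13, 6.89, 6.73 and 6.81 on RAS-ON arrays 1 to 5. It was at 7.63 and 7.78 on the 48 h pair, 7.80 and 7.53 on the 60 h pair, 7.31 and 7.30 on the 72 h pair, 7.31 and 7.40 on the 84 h pair and 7.43 and 7.22 on the 96 h pair. The groups did not overlap, with RAS-OFF above RAS-ON, as was so for 9.36% of all genes. The reading rose by 0.61 ± 0.07 (SE) on the log2 scale (adjusted p = 6.47e-06 in limma). The probe set was dim, below the median on all 5 RAS-ON arrays, so no fold of the mRNA is given; it was above the array's median on 9 of 15 arrays and was removed by the alternative filter on dim genes.

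Eomes, which encodes the T-box factor that with T-bet marks conventional natural killer cells, had a small rise that depended on the settings. Its brighter probe set ran from 7.43 to 7.86 in RAS-ON and from 7.67 to 8.15 in RAS-OFF arrays, with 6 of 10 above all RAS-ON arrays. The rise of 0.18 ± 0.07 (SE; adjusted p = 0.0355 in limma) lost its call under 13 of 26 alternatives, over which the adjusted p ran from 0.000644 to 0.306. Single arrays without which it was lost were RAS-ON 2 (0.0583) and RAS-ON 3 (0.106, with a rise of 0.11), the first array of 48 h (0.0597) and of 60 h (0.0623), and the second of 72 h (0.0645), 84 h (0.0684) and 96 h (0.0505). With arrays centred on their medians it was 0.16 (adjusted p = 0.07), and with the replicate block 0.10 (adjusted p = 0.306). The other Eomes probe set rose more, by 0.38 ± 0.06 (SE; adjusted p = 0.000149 over all probe sets in limma), with 9 of 10 RAS-OFF arrays above all RAS-ON arrays. Tbx21 minus Eomes rose within arrays by 0.42 (two-sided exact permutation p = 0.004, adjusted p = 0.004 over the 3 pairs), above RAS-ON in 9 of 10 RAS-OFF arrays. With the other Eomes probe set this rise was 0.22 (two-sided exact permutation p = 0.046), above RAS-ON in 1 of 10. This pair was also picked after the values were seen.

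Il2rb, the receptor chain shared by interleukins 2 and 15, read lower on its brighter probe set, at 7.82 to 8.06 in RAS-ON and 7.51 to 8.06 in RAS-OFF arrays. The difference of -0.16 ± 0.07 (SE) did not pass (adjusted p = 0.0891 in limma), although 7 of 10 RAS-OFF arrays lay below all RAS-ON arrays. It passed without RAS-OFF 48 h replicate 1 (adjusted p = 0.0279) and without 72 h replicate 2 (adjusted p = 0.0285), and was at most 0.694 over all alternatives. The other Il2rb probe set went the other way, by 0.09 ± 0.08 (SE; adjusted p = 0.348 over all probe sets in limma), so the gene's direction is not settled by these arrays.

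Between 48 and 96 h the slope was below 0 for all 9 genes. The median slope over all genes tested was 0 after rounding. The 9 slopes come from the same arrays, so their common sign is not 9 separate results. Called higher than RAS-ON were 5 of the 9 at 48 h, when 13.7% of all genes were called higher and 13.7% lower. After 60 h the count was 4 (11.5% of all genes higher, 14.2% lower), after 72 h it was 3 (13.4% and 18.3%), and after 84 h again 3 (15% and 21.8%). After 96 h it was 2, and Il2rb was called lower (16.7% and 20.9% of all genes). No other member was called lower at any of the times. The median log2 difference from RAS-ON was 0.39, 0.33, 0.17, 0.11 and 0.01 at the successive times. These comparisons share the RAS-ON arrays.

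Gzma stood 1.37 ± 0.18 (SE) above RAS-ON after 48 h, 1.18 after 60 h and then 0.77, 0.68 and 0.71 after 72, 84 and 96 h, each called. Tbx21 was 0.84 ± 0.11 (SE) above RAS-ON at 48 h, 0.80 at 60 h and 0.44 to 0.49 from 72 h, also called each time. Ncr1 went from 1.00 ± 0.21 (SE) at 48 h to 0.34 at 96 h, where the adjusted p was 0.22 in limma. That last value rests on unlike arrays: without replicate 1, which had the raised Gapdh value, Ncr1 stood 0.88 above RAS-ON at 96 h (adjusted p = 0.00191), and without replicate 2 it was at -0.19 (adjusted p = 0.459). Klrd1 was highest after 60 h, 0.74 ± 0.14 (SE) above RAS-ON, and was not called at 72 h (0.31), 84 h (0.11) or 96 h (0.30). The brighter Eomes probe set was called at 48 h only, at 0.39 ± 0.10 (SE). The other Eomes probe set was called at 48 h (0.64, adjusted p = 0.000217 over all probe sets in limma), 60 h (0.49, adjusted p = 0.0017) and 96 h (0.32, adjusted p = 0.0143), where the brighter one read -0.04. Gzmb went from 0.20 above RAS-ON at 48 h to 0.21 below it at 96 h (-0.21), and neither value passed.

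Single arrays of 2 decide some of these calls. Without the second array of a time, Gzma was lost at 72 h (0.69, adjusted p = 0.0552), 84 h (0.60, adjusted p = 0.0831) and 96 h (0.42, adjusted p = 0.145) in limma. Tbx21 was lost at 72 h without replicate 1 or 2 (adjusted p = 0.0623 and 0.0536) and at 96 h without replicate 1 (0.0904). Ncr1 was lost at 60 h without replicate 1 (0.0975), at 84 h without replicate 1 or 2 (0.0743 and 0.173), and at 72 h without either array of that time (0.116 and 0.203) or without RAS-ON 1, 4 or 5 (0.051, 0.0587 and 0.0622). Against RAS-ON arrays 1 to 3, Ncr1 was also lost at 72 h (0.47, adjusted p = 0.107) and 84 h (0.51, adjusted p = 0.0787), and with the replicate block at the same times (0.0892 and 0.0676), when Tbx21 was lost at 72 h (0.0671). Against RAS-ON arrays 4 and 5, Klrd1 dropped to 0.28 at 48 h (adjusted p = 0.0723). Klrd1 was lost at 48 h without replicate 2 (0.122) and Eomes at 48 h without replicate 1 (0.101). The Il2rb call at 96 h, at -0.30 with an adjusted p of 0.0471, was lost in 17 of 26 alternatives (adjusted p up to 0.203), among them the leaving out of any 1 of RAS-ON 1, 2, 4 and 5 (0.0903, 0.0681, 0.053 and 0.0555), either 60 h array (0.0594), either 84 h array (0.0575) or 96 h replicate 1 or 2 (0.203 and 0.137). With the mean of both Il2rb probe sets it was -0.16 (adjusted p = 0.2), and the other probe set alone read -0.02 (adjusted p = 0.903 over all probe sets).

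**Figure D3:**
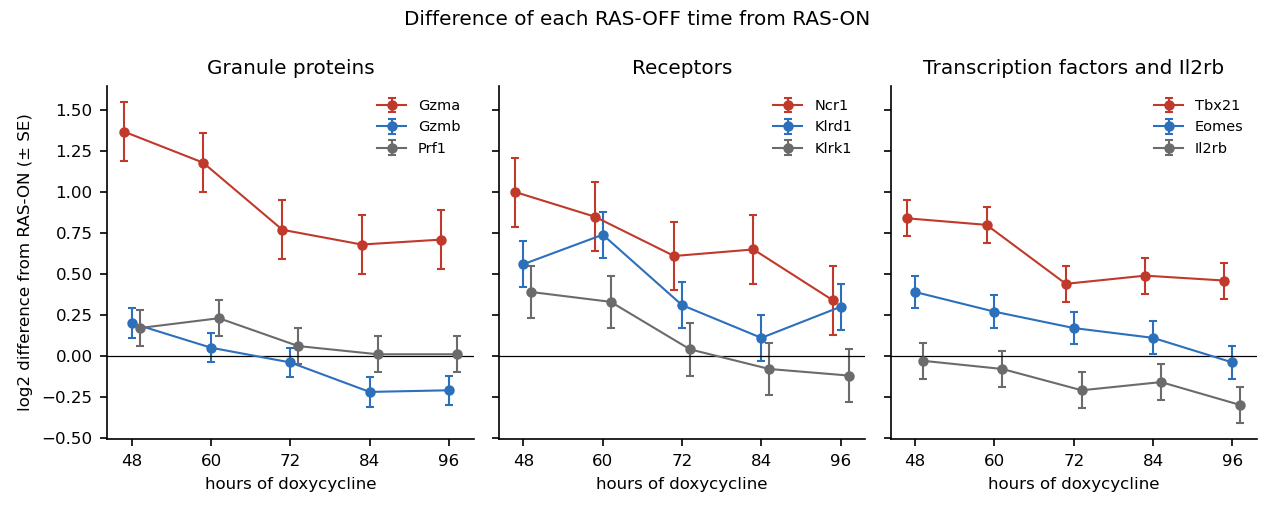
Log2 difference from RAS-ON (vertical axis, with standard errors of the limma fit) against hours of doxycycline (horizontal axis) for granule proteins, receptors, and the transcription factors with Il2rb; points are shifted sideways for legibility. Gzma runs from 1.37 at 48 h to 0.71 at 96 h and Ncr1 from 1.00 to 0.34 (0.88 at 96 h without replicate 1). All 9 slopes are below 0, and the median slope over all genes tested is 0 after rounding.

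The mean of 84 and 96 h was set against that of 48 and 60 h, a contrast whose estimate does not use the RAS-ON arrays. Those arrays do enter the spread behind its p-values, as they do for the slope. Of the 9 genes 6 were lower late (8.76% of all genes were) and none was higher (4.91%). The difference was -0.58 ± 0.15 (SE; adjusted p = 0.0173 in limma) for Gzma, -0.46 ± 0.13 (adjusted p = 0.0289) for Klrk1 and -0.44 ± 0.12 (adjusted p = 0.0255) for Klrd1. The differences were -0.35 for Tbx21, -0.34 for Gzmb and -0.30 for Eomes, also called. Ncr1, Prf1 and Il2rb, at -0.43, -0.19 and -0.17, did not pass. The slope per 12 h was called lower for 5 genes (8.75% of all genes) and higher for none (5%). It was -0.18 ± 0.05 (SE) for Gzma, -0.14 for Klrk1, -0.11 for Gzmb and Tbx21, and -0.10 for Eomes. The Klrd1 slope of -0.11 was not called (adjusted p = 0.0665 in limma). It passed when only the RAS-OFF arrays were fitted (adjusted p = 0.00991 in limma). In the same arrays the leukemia marker median against RAS-ON was -0.33, -0.49, -0.71, -0.92 and -1.25 at the successive times, and its part in the late decline was not tested. The red pulp macrophage median was 0.76, 0.64, 0.62, 0.82 and 0.46, with its highest value at 84 h.

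Without the first arrays of 48, 84 and 96 h, limma called 0 of the 9 genes for late against early and 0 for the slope, where 4 each had an unadjusted p below 0.05 and all 9 values were below 0. The share of all genes at that unadjusted p was not computed. Several late calls were also lost without 1 array. Leaving out the second array of 48 h, or the first of 60 h or 84 h, left 1 gene called late against early, and leaving out the first of 96 h left 2. For the slope, 2 genes were left without either array of 48 h or the first of 96 h, and 3 without the first array of 60 h or of 84 h. Gzmb, called late against early at -0.34, remained called in 23 of 24 alternatives and Gzma in 19 of 24. Ncr1 passed without 96 h replicate 2, at -0.69 (adjusted p = 0.00338), and was -0.16 (adjusted p = 0.518) without 96 h replicate 1.

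Other genes of the pathway, taken from lists made for this work, moved both ways, as all genes did (20.1% called higher and 28.7% lower). Of 21 measured natural killer receptor genes outside the set 8 rose and 5 fell, with a median of 0.07. Klrc1, which encodes the NKG2A partner of CD94, rose by 0.97 ± 0.09 (SE), with RAS-ON arrays at 5.66 to 6.10 and RAS-OFF arrays at 6.48 to 7.14. Klra7, an Ly49 receptor gene, rose by 0.87 ± 0.07 (SE), from 5.07 to 5.51 on RAS-ON up to 6.06 to 6.59 on RAS-OFF arrays. Both lay below the median of every array, and Ly49 genes are so alike that a probe set may read several of them. Each has 2 probe sets, of which the brighter is given. Over the alternatives the rise ran from 0.57 to 1.04 for Klrc1 and from 0.44 to 0.94 for Klra7. Klrb1f, an Nkrp1 family gene, fell by 0.93 ± 0.09 (SE), and all 3 genes had no overlap between the groups. Among all genes 9.36% had every RAS-OFF array above every RAS-ON array, and 12% had every one below.

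Of 20 genes of granules and killing 4 rose and 6 fell (median 0.03), close to the all-gene shares (20.1% higher and 28.7% lower). The largest changes were falls, with -1.44 ± 0.06 (SE) for Ctsc, the cathepsin that activates granzymes and also myeloid serine proteases, -0.94 ± 0.12 for Gzmc, which was dim, and -0.81 ± 0.15 for the granule membrane gene Nkg7. Myeloid cells also express Ctsc, and the leukemia's azurophil proteases Ctsg and Elane fell in these arrays (-2.66 and -2.07). Those were the largest falls among 12 leukemia markers, of which 6 fell and 2 rose. Whether the fall of Ctsc is tied to theirs was not tested. Of 7 measured adaptor genes 1 rose and 3 fell (median -0.22). Tyrobp and Fcer1g, adaptors that myeloid cells share, fell (-0.34 ± 0.05 and -0.22 ± 0.05, SE), and Sh2d1a, the SLAM-receptor adaptor SAP, rose by 0.30 ± 0.08. Fcer1g was lost with the replicate block (-0.13, adjusted p = 0.132 in limma) and in a fit of 2 groups (0.104), and Sh2d1a against RAS-ON arrays 4 and 5 (0.0646).

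Among 11 measured transcription factors 3 rose and 3 fell (median -0.05), beside 20.1% higher and 28.7% lower among all genes. The same all-gene shares stand beside the next lists. Nfil3, needed for natural killer development and also used by myeloid cells, fell by 1.28 ± 0.13 (SE) and Runx3 fell by 0.66 ± 0.07. Ets1 rose by 0.75 ± 0.07. Over the alternatives Runx3 ran from -0.84 to -0.41 and Ets1 from 0.48 to 0.88. In the cytokine list 5 of 14 rose and 6 fell (median -0.14). The interleukin 18 receptor gene Il18r1 rose by 0.97 ± 0.10 (SE), and Il15ra, which presents interleukin 15, and Jak3, the kinase that relays it, fell (-0.76 ± 0.10 and -0.62 ± 0.10). Of 12 cytokine and homing genes 3 rose and 3 fell (median -0.03). The chemokine gene Ccl5, abundant in natural killer and memory T cells, rose by 1.17 ± 0.07 (SE). It went from 8.93 to 9.22 on RAS-ON arrays up to 9.99 to 10.41 on RAS-OFF arrays. Ccl3 fell by 1.53 ± 0.09 and the integrin gene Itga1 fell by 0.80 ± 0.07, with -0.95 to -0.48 for Itga1 over the alternatives.

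Ligands that natural killer receptors read on other cells were measured for 9 of 19 names listed, and 3 rose and 5 fell (median -0.13). Among all genes 20.1% were called higher and 28.7% lower. Cd48, the ligand of the receptor 2B4, fell by 0.87 ± 0.06 (SE), with -0.53 at 48 h and -1.29 at 96 h. Clec2d, whose product engages the inhibitory receptor NKR-P1B, rose by 0.51 ± 0.11. Ulbp1, an NKG2D ligand gene, was dim and fell by 0.27 ± 0.09 (SE; adjusted p = 0.028 in limma). Its call was lost in 7 of 25 alternatives (adjusted p 0.00401 to 0.26), among them without RAS-ON 1 or 2 (0.0507 and 0.0935) and without replicate 1 of 48, 60 or 72 h (0.0521, 0.0535 and 0.0537).

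**Figure D4:**
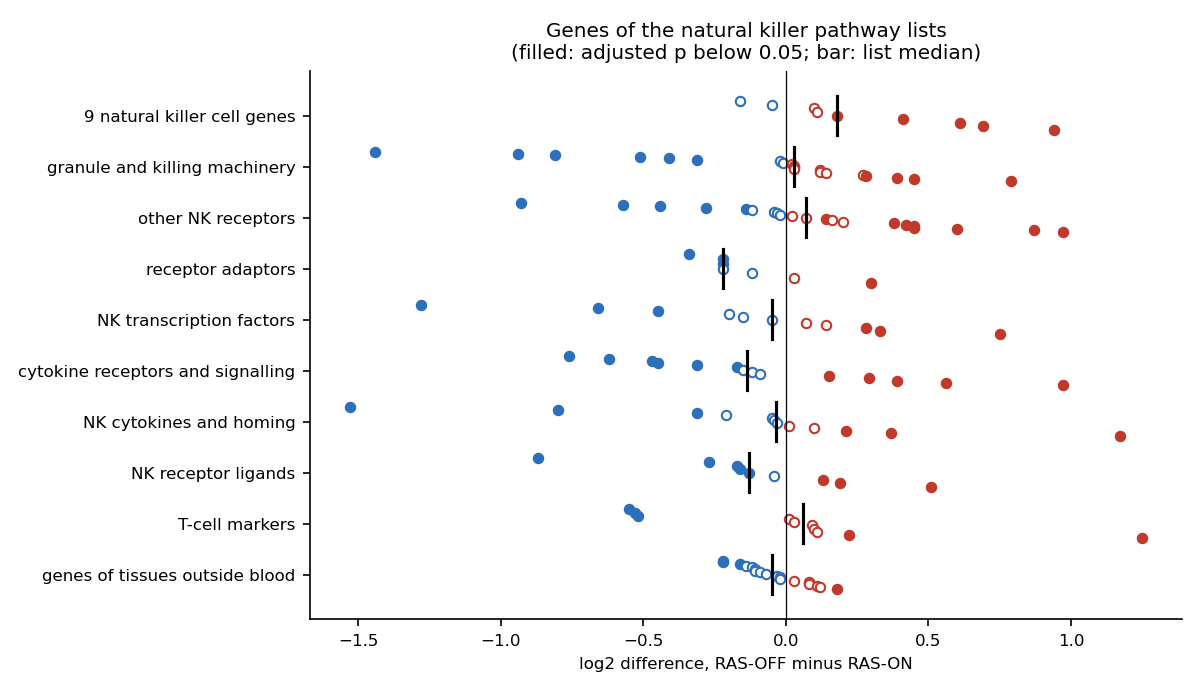
Log2 difference of RAS-OFF minus RAS-ON (horizontal axis) for the 9 natural killer genes and for 9 lists of other genes (rows); each point is a gene, red above 0 and blue below, filled where the adjusted p was below 0.05 in limma, and bars are list medians. The 9 genes have a median of 0.18 and run from -0.16 to 0.94, the pathway lists spread to both sides of 0, and genes of tissues outside blood stay between -0.22 and 0.18.

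Several member genes are also expressed by T cells, mast cells or plasmacytoid dendritic cells, so markers of these were read on the same arrays. Of 10 measured T-cell markers 2 rose and 3 fell (median 0.06), close to the all-gene shares (20.1% higher and 28.7% lower). Their summed intensity was 1857 to 2059 in RAS-ON and 2190 to 2990 in RAS-OFF arrays. This sum weighs bright genes most, and Cd3d was the brightest of the 10 (mean log2 intensity 9.70) and rose most, so it does not show a rise of the markers together. Cd3d rose by 1.25 ± 0.10 (SE), with 1.60 at 48 h and 0.80 at 96 h. The other CD3 chain genes, Cd3e and Cd3g, had differences of 0.01 ± 0.06 and 0.03 ± 0.07 (SE; adjusted p = 0.873 and 0.772 in limma), and Cd5 fell by 0.55 ± 0.08. Cd3e lay between 7.74 and 8.08 on all 15 arrays, within the range of the genes of other tissues. The part of T cells in the rise of the natural killer genes was not tested.

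Of 10 mast cell and basophil markers 3 rose and 1 fell (median 0.01), with sums of 1820 to 3075 in RAS-ON and 1669 to 2684 in RAS-OFF arrays. The all-gene shares of 20.1% higher and 28.7% lower stand beside each count here. Cpa3, the mast cell carboxypeptidase, differed by 0.12 ± 0.08 (SE; adjusted p = 0.252 in limma), Mcpt8 fell by 2.21 ± 0.25 and Hdc rose by 0.60 ± 0.08. Of 7 plasmacytoid dendritic cell markers 3 rose and 2 fell (median 0.09, sums 2233 to 2355 and 2067 to 2668). The change was 0.52 for Ccr9 and -0.48 for Pacsin1, and Siglech rose by 0.22 ± 0.07. Ccr9, with 5 probe sets, ran from 0.19 to 0.55 over the alternatives. None of the 4 measured markers of innate lymphoid cells 2 and 3 passed (median 0.02; sums 585 to 647 and 591 to 660). Of 9 B-cell markers 3 rose and 5 fell (median -0.20; sums 2320 to 2427 and 1632 to 1999), with -1.41 for Cd79b and 0.61 for Fcrla. Erythroid and most red pulp macrophage genes were higher with RAS off. Of 8 erythroid genes 8 rose (median 1.68, sums 26049 to 31517 and 66826 to 85493), led by Epb42 and Car1 (2.43 and 2.39). Of 10 red pulp macrophage genes 8 rose and 1 fell (median 0.66, sums 11569 to 16503 and 17191 to 23211). Timd4 and Slc40a1 rose most among them (1.21 and 1.03). Of 12 leukemia markers 2 rose and 6 fell (median -0.68, sums 56569 to 60872 and 26812 to 37268). The share of host cells in each spleen was not measured, and its part in the rise of the natural killer genes was not tested.

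The genes whose profile over the 15 arrays lay closest to that of Ncr1, each centred on its own mean, were sought among 18184 other genes by the root-mean-square log2 difference. The nearest was Treml4, a receptor gene of splenic macrophages and dendritic cells, at 0.16 log2 units, set beside an SD of 0.45 for Ncr1 itself over these arrays. Lgals3bp and Rnf167 followed at 0.20, and Snap23 and Cars at 0.21. The 9 measured genes of the set were left out of this search, so it does not show how closely they follow Ncr1. No gene of the other natural killer lists was among these 5. Treml4 rose by 0.72 ± 0.09 (SE), and a rise near that of Ncr1 follows from how the gene was picked.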

How the data were processed

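RNA was amplified and labelled with biotin, and 1 array was hybridised per sample, per the labels' protocols. The deposited values are intensities that the authors made with RMA, per the submitters' processing notes, on a linear scale; which version or options they used was not stated here. RMA normalizes between arrays, so a shift of most genes together would not be visible. Log2 was taken. Genes were named through the platform annotation: of 45101 probe sets, 34945 had 1 symbol, 932 several, 9160 none and 64 were controls. Each of 18193 genes took the brightest of its probe sets, by mean over the 15 arrays. limma 3.58.1 (R 4.3.3) fitted 6 group means with default eBayes and two-sided tests, with Benjamini-Hochberg adjustment over all genes and a threshold of 0.05. RAS-OFF minus RAS-ON weighs the 5 times equally, and SDs over 10 RAS-OFF arrays include differences between times. Exact permutation tests used scipy 1.17.1. The labels do not say that replicates are separate mice, so the spread behind each p-value is that of these samples and may be technical. Within groups arrays correlated at 0.987 to 0.997 and 0 pairs were identical.

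The 10 genes, the lists and the settings were chosen with earlier results of these data known. All 10 genes were named whatever their values. From each pathway list up to 3 called genes with the largest difference were named, from each marker list up to 2, and the defining markers Cd3e, Cd3g, Cpa3 and Siglech whatever their values; 1 further defining marker is not reported here. The 3 within-array pairs, and the list genes given with times or group ranges, were picked after the values were seen, as were Ctsg and Elane beside Ctsc. The p-values of the pairs do not allow for that choice. Ptprc, Mpo and Slc4a1 were named for their brightness. Alternatives were other filters, summaries of probe sets, scaling, eBayes settings, array weights, the replicate block, each array left out, and subsets of arrays; those for the within-array pairs and for Ncr1 at 96 h were added after seeing the data. The code was tested on simulated data.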

Additional observations from a re-analysis of the deposited data

Results flagged for a closer look

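Among the 5 RAS-ON arrays, array 3 lay far from the other 4 for 2 of the 12 member probe sets: it read 7.27 for the brighter Prf1 probe set and 7.10 for the dimmer Il2rb probe set, in both cases below the rest. Chance alone would set about 1 in 20 such groups apart.

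The difference from RAS-ON changed between early and late times for 6 genes in limma, measured as the mean of 84 and 96 h minus that of 48 and 60 h. It was -0.58 for Gzma, -0.34 for Gzmb, -0.35 for Tbx21, -0.30 for Eomes, -0.44 for Klrd1 and -0.46 for Klrk1 on the log2 scale.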

How the results depend on the processing

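Each count of called genes is out of 9. Against RAS-ON arrays 4 and 5 alone, 3 genes in place of 5 were called for RAS-OFF minus RAS-ON, namely Gzma, Ncr1 and Tbx21, and Klrk1 turned to -0.14. Without the 3 RAS-OFF arrays known from earlier results to stand apart (replicate 1 of 48, 84 and 96 h), 3 genes in place of 5 were called at 48 h, and limma called 0 for the slope and 0 for late minus early, where 4 genes each had an unadjusted p below 0.05 and all 9 values were below 0. With each of the 15 arrays left out in turn, the counts ran from 4 to 5 for RAS-OFF minus RAS-ON, 4 to 6 at 48 h, 3 to 5 at 60 h, 1 to 3 at 72 h, 1 to 4 at 84 h, 1 to 4 at 96 h, 2 to 6 for the slope and 1 to 6 for late minus early. The count of 1 came without either array at 72 h and without replicate 2 at 84 h and at 96 h. The cause of these losses was not tested, and the share of all genes at the unadjusted p was not computed. Where 1 array of a time was left, its spread was taken to equal that of the remaining groups. The other settings left every count within 1.5 times its value. Of 1152 alternative values for the 9 genes, 1029 kept direction and side of the threshold, 109 lost and 12 gained the call and 2 reversed, the other being Ncr1 at 96 h (-0.19 without replicate 2, 0.88 without replicate 1); of 899 for 35 other named genes, 889 kept both and 10 lost the call. The 3 within-array pairs kept theirs in all 18 alternatives each, and Tbx21 minus Eomes also with the other Eomes probe set (0.22). The replicate numbers are not said to pair arrays, and the replicate 1 minus 2 difference correlated between groups at -0.23 to 0.22 (2 of 15 pairs above 0.1); with the replicate block 4 genes were called for RAS-OFF minus RAS-ON and Eomes was lost at 0.10. Low signal limits Tbx21, the other Prf1 probe set and the receptor genes below the array medians. Gzmb, Prf1, Ncr1, Eomes and Il2rb also read within the intensity range of the genes of tissues outside blood.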
